A study of Mus musculus with 9 samples.

Results

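The comparison described here is that of cultured mouse microglia given interleukin-4 (IL-4) with microglia that were left unstimulated. It rests on 6 of the series' 9 bead arrays, chosen by their titles: 3 IL-4 arrays (replicates 1 to 3) and 3 unstimulated arrays (replicates 1 to 3). All 6 came from primary microglia prepared from cortical tissue. The pups were C57BL/6J mice, 1 to 5 days of age, and wild type (CB2+/+) for the cannabinoid receptor CB2, the gene whose loss the series as a whole concerns. The IL-4 cultures received 100 U/ml of the cytokine for 48 h. The unstimulated cultures received no cytokine, and the labels give no culture time for them. The other 3 arrays, of microglia given LPS and interferon gamma, entered only an alternative fit. The labels do not say whether the replicates were separate cultures or how many pups each one pooled, so every p-value below measures only the spread between these arrays. The RNA is that of whole cultures, in which fewer cells of a type and less RNA per cell cannot be told apart.

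IL-4 is a cytokine of type 2 immunity. It binds a receptor made of IL-4Rα with either the common gamma chain or IL-13Rα1, the Janus kinases bound to that receptor phosphorylate STAT6, and STAT6 enters the nucleus and binds DNA where TTC and GAA stand 4 bases apart. In mouse macrophages and microglia this leads to a state called alternative activation, known for arginase 1, the secreted protein RELMα, chitinase-like proteins and C-type lectins of the cell surface.

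Values below are log2 intensities after background correction and quantile normalization, and differences are IL-4 minus unstimulated on that scale. A probe counted as measured where 3 or more of the 6 arrays had a detection p under 0.05. This kept 16005 of 45281 probes and 8953 genes. Each gene is represented by its brightest measured probe, and "rose" and "fell" are used only where limma's Benjamini-Hochberg adjusted p was under 0.05. Mean raw intensity lay between 338 and 379 on the IL-4 arrays and between 311 and 372 on the unstimulated arrays, with 15806 to 16435 probes detected per array. The arrays lay on 2 slides: IL-4 replicates 1 and 2 were on one, and IL-4 replicate 3 shared the other with all 3 unstimulated arrays, so slide and treatment are partly confounded. IL-4 replicate 1 stood apart from its 2 mates, and unstimulated replicate 2 stood apart to a lesser degree. Both are described below, and the counts of calls are given with and without them.

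The label of the cells was set against their markers. Of 13 microglial markers 12 were on the array, and 11 of these were measured, Cx3cr1, P2ry12, Tmem119, Csf1r, Sall1 and Trem2 among them. Markers of dendritic cells, lymphocytes and neurons were at or near background: Flt3, Xcr1, Clec9a, Ms4a1, Cd3g, Tubb3, Snap25 and Syt1 were detected on none of the 6 arrays, and Rbfox3 was the 1 neuronal marker of 11 that was measured. The oligodendrocyte genes Mbp, Mag and Cnp were detected on all 6, but Mog, Mobp, Olig2 and Sox10 on none. Mrc1, Pf4 and Ms4a7, which are high in macrophages at the borders of the brain, were detected on all 6. Of the 9 border macrophage markers on the array 6 were measured. Cd163 was detected on 1 IL-4 array only, and Lyve1 and Cd209f on none.

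In the main fit a small set of genes was higher with IL-4, some of them by large factors. In 16 probes (0.1% of those measured) the intensity rose and in 3 probes (0.0187%) it fell. Counted as genes, 13 rose (0.145% of measured genes) and 1 fell (0.0112%). At an unadjusted p under 0.05 there were 781 higher and 875 lower probes. The median difference over all measured genes was 0.01. The deviations of same-numbered arrays from their group means ran together, though the labels do not pair these arrays. With replicate number as a block the counts became 59 higher (0.369%) and 45 lower (0.281%) probes, or 39 genes higher (0.436%) and 30 lower (0.335%). The size of the count also hung on single arrays: without unstimulated replicate 1 no probe passed (600 higher and 655 lower at an unadjusted p under 0.05), while without unstimulated replicate 2 there were 12 higher and 33 lower. Without IL-4 replicate 2 there were 9 and 1, without IL-4 replicate 3 there were 8 and 0, and without unstimulated replicate 3 there were 7 and 0.

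Retnla, which encodes the secreted protein RELMα (FIZZ1), and Arg1, which encodes arginase 1, the enzyme that splits arginine into ornithine and urea, showed the largest rises. Retnla had 12, 13.29 and 11.42 in the IL-4 replicates, against 4.38, 4.50 and 4.65 in the unstimulated replicates, where it was not well above background on any array. Its rise was at least 169-fold (fitted difference 7.72, adjusted p = 0.00292 by limma). Arg1 stood at 12.67, 12.51 and 13.49 with IL-4, against 4.44, 4.20 and 7.70 in unstimulated cells. The fitted difference of Arg1 was 7.44 ± 0.86 (SE, n = 3 each), with a limma adjusted p of 0.0440. This probe was detected on 1 unstimulated array, and with undetected values raised to the detection floor the difference was 7.10. Its other probe, detected on 2 unstimulated arrays, differed by 6.85 (adjusted p = 0.00852). On both probes the groups lay far apart.

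Because STAT6 motifs lie before many IL-4 target genes, the windows from 250 bases before to 50 bases after the annotated starts of the risen genes were read from RefSeq's promoter table (GRCm38.p6), which held 9 of the 13. The searched motif, TTC and GAA with any 4 bases between them, reads alike on both strands and occurred in the window of Retnla and in 1 of 3 windows of St7. It was held by 6.95% of all 32851 windows, and by 6.53% of the 7347 measured genes with a window. The related motif with 3 bases between TTC and GAA, likewise the same on both strands, was found in none of the risen genes' windows, against 8.3% of all windows. The 2 windows that hold the longer form are those of a gene with a very large rise and of a gene with a moderate one, and are shown with the match in capitals. That of Retnla, chr16:48842359-48842658 on the + strand, has it 145 bases before the start. That of St7, chr6:17748920-17749219 on the + strand, has it 60 bases before the start. A match of letters is a description of the window and not a binding site shown by these data.
Retnla: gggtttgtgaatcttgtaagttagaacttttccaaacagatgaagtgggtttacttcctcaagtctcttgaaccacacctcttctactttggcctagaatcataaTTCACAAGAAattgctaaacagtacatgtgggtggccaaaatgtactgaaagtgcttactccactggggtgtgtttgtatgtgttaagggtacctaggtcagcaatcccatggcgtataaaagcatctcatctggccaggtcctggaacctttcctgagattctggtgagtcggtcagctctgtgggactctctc
St7: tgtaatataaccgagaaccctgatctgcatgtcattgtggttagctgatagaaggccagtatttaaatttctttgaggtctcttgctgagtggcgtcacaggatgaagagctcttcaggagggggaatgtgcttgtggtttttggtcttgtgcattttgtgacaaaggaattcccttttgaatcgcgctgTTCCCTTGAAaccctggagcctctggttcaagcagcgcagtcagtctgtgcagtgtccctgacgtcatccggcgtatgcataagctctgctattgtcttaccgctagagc

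Several other risen genes encode products that macrophages secrete or display. Rnase2a (also called Ear11), a ribonuclease of the eosinophil-associated family, had 9.13, 10.58 and 11.20 with IL-4, against 4.34, 4.28 and 4.42 unstimulated, and rose at least 44.4-fold (limma adjusted p = 0.00766). Mgl2, the C-type lectin CD301b, which binds galactose-type sugars, had 9.66, 8.27 and 9.46, against 4.48, 4.30 and 4.43 unstimulated. On this probe it rose at least 19.7-fold (limma adjusted p = 0.00766). Its other probe, detected on 1 unstimulated array, differed by 3.10 (adjusted p = 0.0335). The probes shown for both genes were detected on every IL-4 array and on no unstimulated array. Il4i1, an amino acid oxidase first found as an IL-4-induced gene, had 9.25, 8.61 and 8.67 with IL-4 and 5.92, 6.91 and 6.35 without (difference 2.45 ± 0.29 SE, limma adjusted p = 0.0441). Cd300ld, a receptor of the CD300 family on myeloid cells, was bright in both groups and had a small, tight rise: 11.26, 11.31 and 11.44 with IL-4 against 10.13, 9.86 and 9.78 unstimulated (1.41 ± 0.17, adjusted p = 0.0454).

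Arginine transport and breakdown were both represented among the risen genes. Slc7a2, a cationic amino acid transporter that imports arginine, had 9.59, 7.85 and 8.03 with IL-4, against 4.59, 4.93 and 5.02 unstimulated (3.64 ± 0.44 SE, limma adjusted p = 0.0441), while its other measured probe differed by only 1.38. In the arginine and polyamine list, Arg1 and Slc7a2 rose, no gene fell, and 9 of the 11 measured members did not pass. Over all measured genes 0.145% rose and 0.0112% fell. Odc1, which makes the polyamine putrescine from ornithine, had 11.26, 10.04 and 10.36 with IL-4 and 9.54, 9.42 and 9.75 without, a difference of 0.99 that missed the threshold (adjusted p = 0.330). Srm, the spermidine synthase gene, differed by 0.55 (adjusted p = 0.365). The list's median difference was 0.23, beside 0.01 over all genes.

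Regulators of signalling and transcription rose too. Egr2, a zinc finger transcription factor, had 9.27, 10.25 and 9.52 with IL-4, against 6.00, 6.25 and 6.85 unstimulated (3.31 ± 0.32 SE, limma adjusted p = 0.0195). Dusp4, a phosphatase that switches off MAP kinases in the nucleus, had 10.53, 10.18 and 10.25, against 6.41, 7.31 and 6.27 unstimulated (3.65 ± 0.29, adjusted p = 0.00766). Fyn, a kinase of the Src family, had 7.90, 8.08 and 8.16, against 5.39, 5.74 and 5.37 unstimulated (2.55 ± 0.18, adjusted p = 0.00766). The replicates of Dusp4 and Fyn were close together in the IL-4 group, and no array of one group reached the other. A second measured probe of Fyn, however, differed by 0.22, so that its rise rests on 1 of 2 probes.

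The remaining risen genes were St7, P3h2 and Focad. St7, described as a suppressor of tumor growth, had 8.29, 7.95 and 8.87 with IL-4 and 5.04, 5.35 and 6.19 without (2.85 ± 0.35 SE, limma adjusted p = 0.0455). P3h2, an enzyme that hydroxylates proline in collagen, had 6.81, 7.35 and 7.4 with IL-4 and 5.18, 4.84 and 5.31 without (2.08 ± 0.23, adjusted p = 0.0335). Focad, which encodes focadhesin, a focal adhesion protein, had 8.72, 8.47 and 8.50 with IL-4 and 6.99, 7.06 and 6.84 without (1.6 ± 0.17, adjusted p = 0.0306), but its other measured probe differed by 0.16. Clic4, an intracellular channel protein, also had 1 probe past the threshold (1.48, adjusted p = 0.0398). That probe was not its brightest, so the gene lies outside the naming rule and is given after its values were seen.

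Among these 6 arrays the slide could be separated from the treatment only on the slide that held both groups, with 1 IL-4 array against 3 unstimulated arrays. The fit then assumes that the lone IL-4 array varies like the others. In it Retnla (fitted difference 6.91) and Rnase2a (6.85), both undetected in unstimulated cells, had a limma adjusted p of 0.0392 and were the 2 probes past the threshold. Arg1 differed by 8.04, Mgl2 by 5.06, Dusp4 by 3.58, Slc7a2 by 3.18, Egr2 by 3.15 and Fyn by 2.66 within that slide, with adjusted p between 0.0988 and 0.938 in a design with a single IL-4 array. The smallest difference among the 13 risen genes there was the 1.51 of Cd300ld. Their direction could not change in this fit, because every IL-4 array lay above every unstimulated array in each of them. With all 9 arrays and slide as a block, 4 probes were higher and 0 lower (201 and 170 at an unadjusted p under 0.05).

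**Figure D1:**
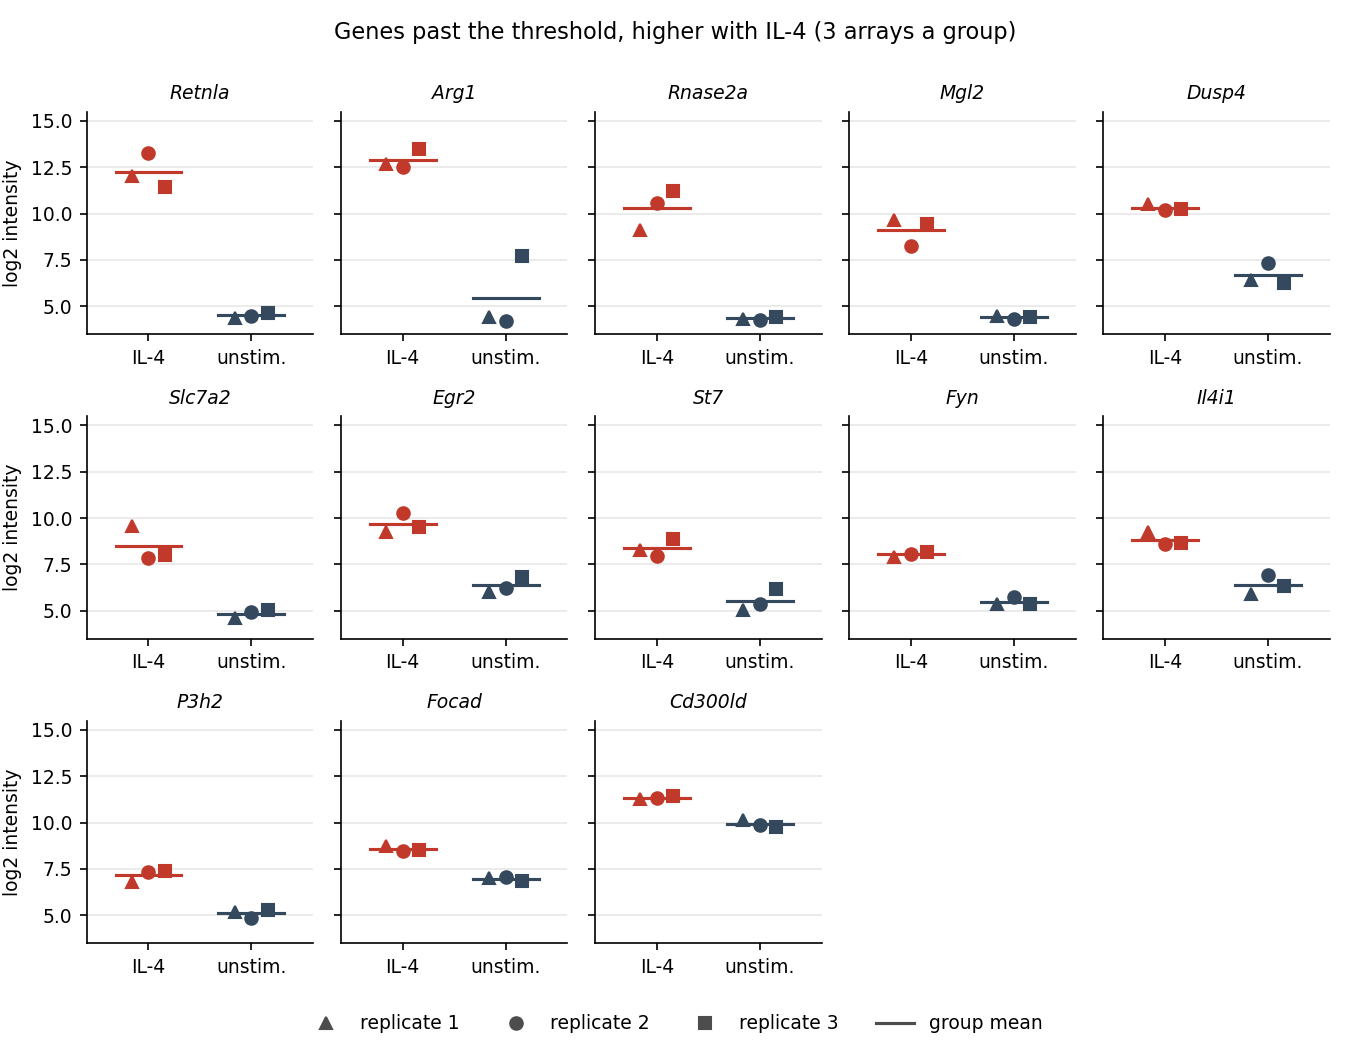
Log2 intensity of the 13 genes that rose, 1 panel a gene, with the IL-4 arrays on the left and the unstimulated arrays on the right of each panel (3 arrays each, marked by replicate number, lines at the group means). No IL-4 array overlapped an unstimulated array in any panel, and Retnla, Rnase2a and Mgl2 were near 4.4 in every unstimulated array.

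The list of genes known from alternative activation was described as a whole. It held 40 genes, of which 39 were on the array and 26 were measured, and 5 rose (Retnla, Arg1, Rnase2a, Mgl2 and Slc7a2), none fell and 21 did not pass. Over all measured genes 0.145% rose and 0.0112% fell. With replicate number as a block the list had 8 higher and 0 lower, beside 0.436% and 0.335% of all genes. In 14 of the 26 all IL-4 arrays lay above all unstimulated arrays, and in 1 all lay below. Over all measured genes the same held for 898 (10%) and 753 (8.41%). The median difference of the list was 1.34, beside 0.01 over all genes. Unmeasured members included the chemokines Ccl17 and Ccl22 and the lipoxygenase Alox15, whose probes did not reach detection on 3 arrays.

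3 members passed with the block alone. Ccl24, the chemokine eotaxin-2, had 10.47, 7.71 and 9.97 with IL-4, against 5.90, 4.88 and 6.07 unstimulated, a difference of 3.76 ± 0.69 (SE; limma adjusted p = 0.138, and 0.0151 with the block). The lowest array of each group was replicate 2. Mrc1, the mannose receptor CD206, had 14.26, 12.82 and 13.19 with IL-4, against 12.78, 10.79 and 11.56 unstimulated (1.71 ± 0.55, adjusted p = 0.335, and 0.0265 with the block), so it was bright in both groups and each IL-4 array exceeded the unstimulated array of its number. Tfrc, the transferrin receptor that takes up iron, had 11.34, 10.92 and 10.47 with IL-4, against 8.87, 9.17 and 8.77 unstimulated (1.97 ± 0.25, adjusted p = 0.0542, and 0.0265 with the block).

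Other well-known members were higher on every IL-4 array without passing either fit. Chil3 (Ym1), a chitinase-like protein, had 7.90, 5.57 and 6.61 with IL-4 and, on a probe not well above background in unstimulated cells, 4.43, 4.20 and 4.22 (adjusted p = 0.173, and 0.0519 with the block). Its relative Chil4 had 7.52, 5.59 and 6.4 against 4.36, 4.63 and 4.73 unstimulated (adjusted p = 0.210). Pdcd1lg2, the PD-1 ligand PD-L2, had 9.05, 5.79 and 6.61 against 4.38, 4.27 and 4.32 unstimulated (adjusted p = 0.252). Clec10a, the lectin CD301a, had 8.31, 5.70 and 6.27 against 4.66, 4.75 and 4.58 unstimulated (adjusted p = 0.279). In these 4 genes IL-4 replicate 1 was the highest array. Flt1, a receptor for VEGF, was instead very even with IL-4, at 12.05, 12.09 and 12.07, against 9.02, 10.84 and 9.80 unstimulated (2.18 ± 0.41, adjusted p = 0.142, and 0.0504 with the block). Cdh1, which encodes E-cadherin, had 6.25, 4.95 and 5.16 with IL-4 against 4.56, 4.85 and 4.60 unstimulated (adjusted p = 0.483).

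The rest of the list was mixed. Igf1, the growth factor, was bright in both groups at 13.39, 13.78 and 13.68 with IL-4 and 12.19, 13.39 and 12.43 without (0.95, adjusted p = 0.359). Il1rn, the interleukin-1 receptor antagonist, differed by 0.53, Hbegf by 0.76, Gatm by 0.68, Emp2 by 0.60, Cd83 by 0.48 and Tgm2 by 0.25, all with overlapping groups and adjusted p of 0.496 or above. Mmp12, the macrophage elastase, did not differ beyond its spread (-0.01 ± 0.66 SE). Vegfa was lower on every IL-4 array, at 5.81, 4.93 and 5.38 against 5.99, 6.05 and 7.39 unstimulated (-1.10, adjusted p = 0.412). Ch25h, cholesterol 25-hydroxylase, stood at 9.90, 6.71 and 7.56 with IL-4 and 9.85, 7.98 and 10.13 without (-1.27, adjusted p = 0.696). Fn1 and F13a1, which encode fibronectin and the coagulation factor XIII A chain, could not be placed, because unstimulated replicate 2 was far below its mates: Fn1 had 9.72, 9.46 and 11.19 with IL-4 against 10.35, 4.79 and 12.34 unstimulated. F13a1 had 4.37, 4.86 and 4.57 with IL-4 against 7.42, 4.50 and 6.97 unstimulated.

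Of the genes of the IL-4 receptor and its signalling, 22 of 23 were on the array and 21 were measured. Egr2 rose, beside 0.145% of all measured genes, none fell and 20 did not pass, with a median difference of 0.20. The block gave 4 higher and 0 lower, beside 0.436% and 0.335% of all measured genes. The receptor chains that were measured did not rise, and the common gamma chain (Il2rg) was not on the array. Il4ra, the chain that binds IL-4, was dim, at 6.3, 4.48 and 4.87 with IL-4 against 5.90, 5.11 and 6.22 unstimulated (-0.53, adjusted p = 0.791). Il13ra1, its partner in the type II receptor, had 5.85, 6.88 and 6.92 with IL-4 against 9.53, 8.04 and 9.83 unstimulated (-2.58 ± 0.50 SE, adjusted p = 0.142, and 0.0685 with the block). It was the only measured member in which all IL-4 arrays lay below all unstimulated arrays, beside 8.41% of all measured genes. In 5 members all IL-4 arrays lay above, beside 10% of all genes. The kinases Jak1 (-0.13), Jak3 (-0.25) and Tyk2 (0.11) and the transcription factor Stat6 (0.20) had overlapping groups and adjusted p of 0.802 or above.

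With replicate number as a block, 3 more regulators of transcription passed. Batf3, a factor of the AP-1 type, had 8.27, 9.19 and 9.17 with IL-4 against 7.05, 7.16 and 7.31 unstimulated (1.70 ± 0.27 SE, adjusted p = 0.105, and 0.0374 with the block). Ppargc1b (PGC-1β), a coactivator of mitochondrial and lipid genes, had 8.07, 7.79 and 8.09 against 6.81, 5.90 and 6.60 unstimulated (1.55 ± 0.26, adjusted p = 0.114, and 0.0374 with the block). Pparg, a nuclear receptor for fatty acids, had 8.58, 10.35 and 9.48 against 7.10, 9.23 and 7.35 unstimulated. Its groups overlapped, since unstimulated replicate 2 exceeded IL-4 replicate 1, yet each IL-4 array was above the unstimulated array of its number (1.58 ± 0.63, adjusted p = 0.447, and 0.0477 with the block). Klf4 (1.37, adjusted p = 0.256) and Myc (0.93, adjusted p = 0.224) were higher on every IL-4 array without passing. Irf4 was dim and did not separate the groups, at 4.81, 5.59 and 4.79 with IL-4 against 5.94, 5.18 and 4.82 unstimulated. The feedback genes Socs2 (1.61, adjusted p = 0.599), Cish (1.49, adjusted p = 0.555) and Socs3 (-1.30, adjusted p = 0.767) varied widely between replicates. For the remaining members Bcl6 differed by 0.03, Cebpb by -0.67, Irs2 by 0.42, Kdm6b by 0.56 and Ptpn6 by -0.19, with adjusted p of 0.453 or above.

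**Figure D2:**
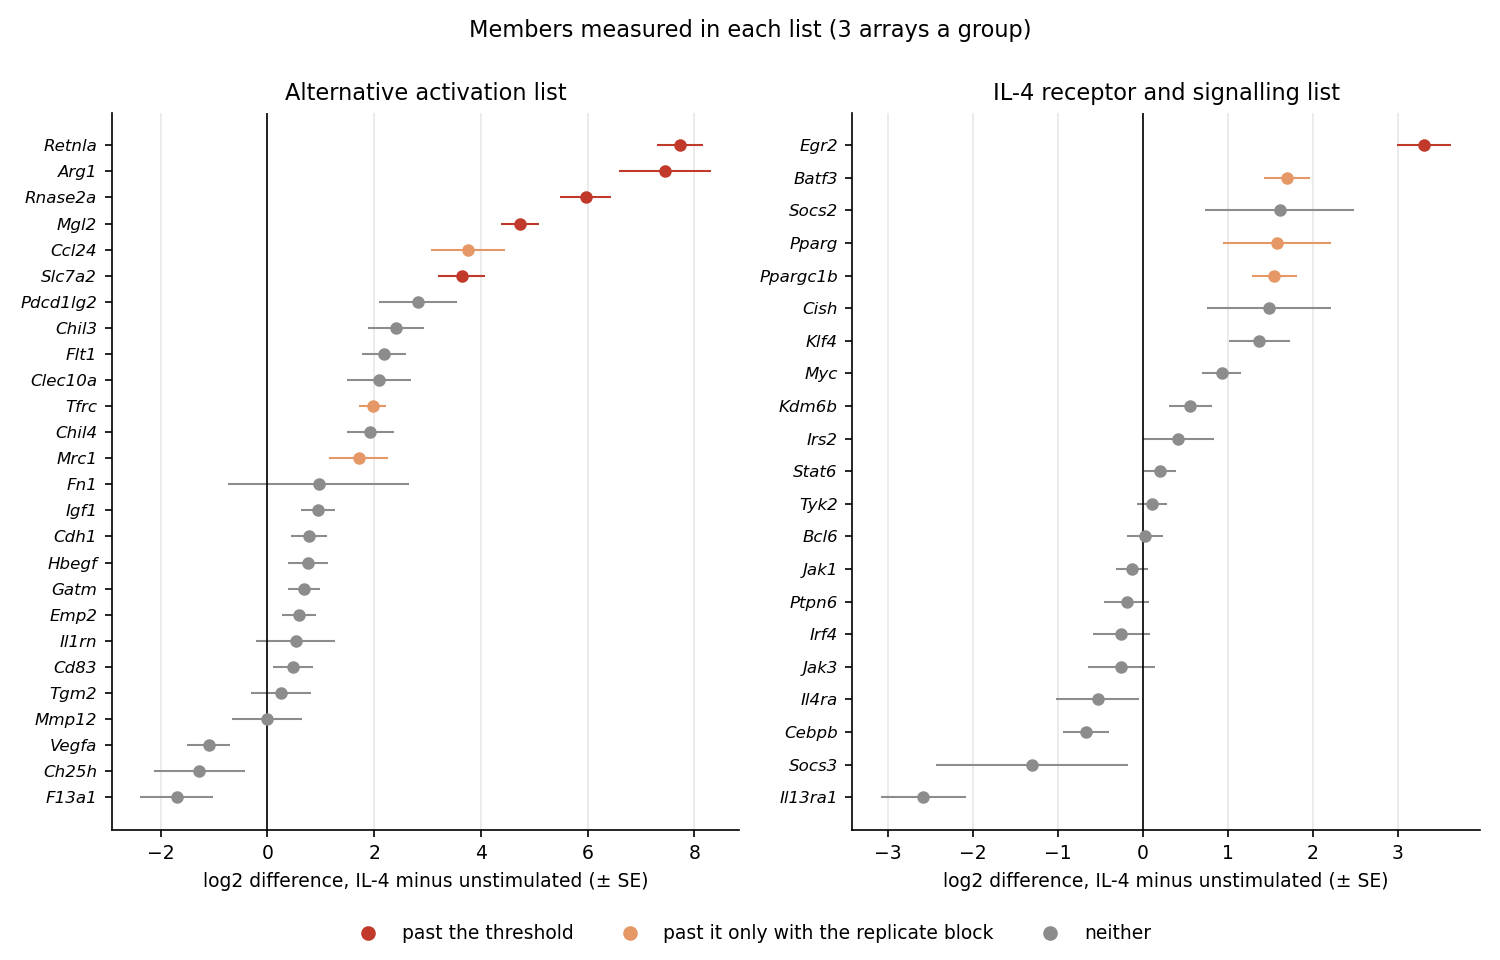
Log2 difference, IL-4 minus unstimulated, with its standard error for the measured members of the alternative activation list (26 genes, left) and of the IL-4 receptor and signalling list (21 genes, right). Colour marks genes past the threshold, genes past it only with replicate number as a block, and neither. Retnla at 7.72 and Arg1 at 7.44 led the left panel, and Egr2 at 3.31 the right.

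On the other side 1 named gene fell. Retreg1 (formerly Fam134b), a receptor that targets endoplasmic reticulum to autophagy, had 9.14, 9.22 and 9.37 with IL-4, against 11.11, 10.57 and 10.95 unstimulated (-1.63 ± 0.20 SE, limma adjusted p = 0.0441). The other 2 probes that fell have no gene symbol in the annotation, with differences of -3.08 (adjusted p = 0.0195) and -1.45 (adjusted p = 0.0441). Of the next genes by strength of evidence, Ralgps2 (-1.66), Cx3cr1 (-2.42), Cd14 (-2.00), Mfsd6 (-1.45) and Clec4e (-2.29) had limma adjusted p between 0.0638 and 0.119 and passed with the block. P4ha2 (-1.24), Epb41l3 (-1.46), Lyz2 (-1.02), Ccny (-0.90), Stk17b (-1.07) and Klhl6 (-1.41) passed neither. Lyz2, lysozyme, was among the brightest probes, at 14.14, 14.04 and 13.90 with IL-4 against 15.21, 14.90 and 15.03 unstimulated.

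Genes of resting, homeostatic microglia stood lower with IL-4 in nearly every case measured, without passing the threshold. Of 25 measured members of the homeostatic list 24 had a difference below 0, the exception being Selplg at 0.07, and the median was -0.46 beside 0.01 over all genes. None passed the threshold, and with the block 0 were higher and 3 lower, beside 0.436% and 0.335% of all measured genes. In 9 of the 25 members all IL-4 arrays lay below all unstimulated arrays, beside 8.41% of all measured genes, and in 0 above, beside 10%. Cx3cr1, the receptor for the neuronal chemokine fractalkine, had 9.78, 10.28 and 10.63 with IL-4, against 12.89, 12 and 13.06 unstimulated (-2.42 ± 0.33 SE, adjusted p = 0.0684, and 0.0265 with the block). P2ry13, a receptor for ADP, had 8.23, 7.05 and 7.10 against 10.58, 8.65 and 10.31 unstimulated (-2.39 ± 0.54, adjusted p = 0.203, and 0.0394 with the block). Olfml3, a secreted glycoprotein, had 10.11, 9.82 and 10.72 against 11.84, 10.98 and 12.72 unstimulated (-1.63 ± 0.44, adjusted p = 0.263, and 0.0432 with the block), and is named after its values were seen.

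Smad3, Tgfbr1, Tgfbr2 and Irf8, whose groups did not overlap either, passed neither fit. Smad3, which carries the TGF-β signal to the nucleus, had 9.08, 9.33 and 9.62 with IL-4 against 10.60, 10.15 and 10.87 unstimulated (-1.20, adjusted p = 0.158). The receptors Tgfbr1 (-0.92, adjusted p = 0.255) and Tgfbr2 (-0.71, adjusted p = 0.268) and the transcription factor Irf8 (-0.84, adjusted p = 0.248) lay lower on every IL-4 array. P2ry12, a receptor for ADP, was lower by 0.86 on average with overlapping groups, and so was Tmem119, by 1.16. Several members were level within their spread: Cst3 differed by -0.06, Trem2 by -0.07, Fcrls by -0.18 and Csf1r by -0.26. The summed linear intensity of the 12 microglial markers on the array was 42702, 38048 and 41684 with IL-4, against 59734, 43991 and 62263 unstimulated, so unstimulated replicate 2 was near the IL-4 arrays.

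Among receptors that sense microbes and their signalling, the calls with the block were all lower. In the Toll-like receptor and NF-κB list, with 25 members measured, 0 passed the threshold, and the block gave 0 higher and 2 lower, beside 0.436% and 0.335% of all measured genes. All IL-4 arrays lay above all unstimulated arrays in 2 members and below them in 7, beside 10% and 8.41% of all genes, so the higher count was near the background. The median was -0.21, beside 0.01. Cd14, the co-receptor for LPS, had 11.10, 12.05 and 12.11 with IL-4, against 13.61, 13.65 and 14 unstimulated (-2.00 ± 0.30 SE, adjusted p = 0.0770, and 0.0265 with the block). Tlr2, the receptor for bacterial lipoproteins, had 10.54, 9.98 and 9.85 against 12.95, 11.43 and 12.87 unstimulated (-2.29 ± 0.42, adjusted p = 0.137, and 0.0444 with the block). Tlr4, which senses LPS together with Cd14, did not differ beyond its spread (0.24 ± 0.23). Of the cytokine and chemokine list, 19 measured, Tnf had 6.48, 7.15 and 6.21 with IL-4 against 8.19, 8.28 and 7.61 unstimulated (-1.41 ± 0.30, adjusted p = 0.166, and 0.0444 with the block). Cxcl14 had 6.23, 8.01 and 8.84 against 10.06, 9.96 and 10.71 unstimulated (-2.55, adjusted p = 0.219). Il1b stood at 12.28, 10.11 and 10.58 with IL-4 and 12.78, 11.22 and 12.31 without (-1.11, adjusted p = 0.598), and IL-4 replicate 1 reached the unstimulated level. Among 13 chemotactic receptors measured, Fpr2, a formyl peptide receptor, had 9.80, 6.76 and 7.10 against 11.61, 9.69 and 10.46 unstimulated (-2.69 ± 0.82, adjusted p = 0.315, and 0.0265 with the block).

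Lectin receptors moved in both directions. Of 15 measured members Mgl2 rose, beside 0.145% of all measured genes, and 14 did not pass. The block gave 2 higher and 3 lower, beside 0.436% and 0.335% of all genes. All IL-4 arrays lay above all unstimulated arrays in 7 and below them in 4, beside 10% and 8.41% of all genes, and 4 members overlapped. The higher side held Mgl2, Mrc1, Clec10a, Clec4a3, Clec7a and the galectins Lgals1 and Lgals3. The lower side held Clec4n (Dectin-2), Clec4e (Mincle), Clec4d and Clec5a. Clec4a3, Clec5a, Lgals1, Lgals3 and Cd33 are named after their values were seen. Clec4n, which binds fungal mannans, had 8.45, 8.26 and 8.4 with IL-4 against 11.97, 9.77 and 11.16 unstimulated (-2.59 ± 0.49 SE, limma adjusted p = 0.142, and 0.0447 with the block). Clec4e, which binds mycobacterial glycolipids, had 5.54, 4.88 and 4.64 against 7.90, 6.50 and 7.53 unstimulated (-2.29 ± 0.39, adjusted p = 0.119, and 0.0265 with the block). Cd33, a sialic acid binding lectin, overlapped between groups at 7.44, 5.36 and 6.37 against 9.31, 7.16 and 9.02 unstimulated (-2.11, adjusted p = 0.336, and 0.0265 with the block).

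**Figure D3:**
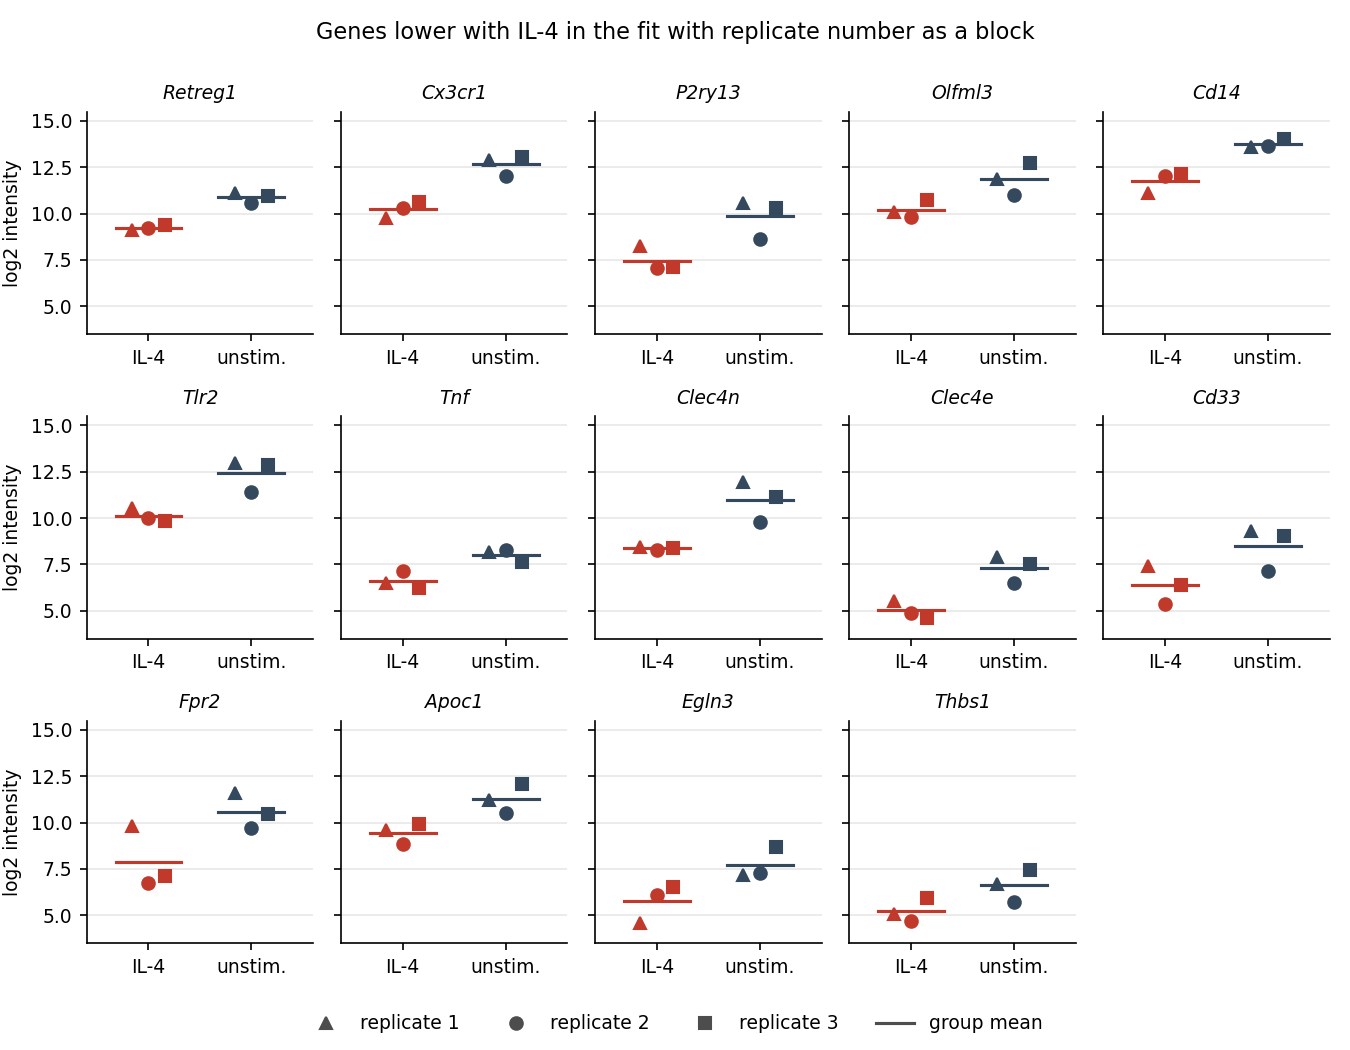
Log2 intensity of Retreg1 and of the 13 list members that were lower with replicate number as a block, with IL-4 arrays on the left and unstimulated arrays on the right of each panel (3 arrays each, marked by replicate number, lines at the group means). Retreg1 alone also passed without the block. In Cd33, Fpr2 and Thbs1 the groups overlap, but each IL-4 array lies below the unstimulated array of its number.

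Lipid and adhesion genes held single calls with the block. Nr1h3, the oxysterol receptor LXRα, had 8.12, 7.48 and 6.91 with IL-4, against 5.72, 5.73 and 5.33 unstimulated (1.91 ± 0.31 SE, limma adjusted p = 0.114, and 0.0265 with the block). Apoc1, an apolipoprotein, had 9.58, 8.86 and 9.92 against 11.20, 10.52 and 12.08 unstimulated (-1.82 ± 0.43, adjusted p = 0.215, and 0.0265 with the block). The lipid list of 20 measured genes had a median of 0.01, equal to that of all genes. Sdc4, the proteoglycan syndecan-4, had 10.87, 10.78 and 11.04 against 9.81, 9.02 and 9.57 unstimulated (1.43 ± 0.23, adjusted p = 0.114, and 0.0447 with the block), and Thbs1, thrombospondin-1, 5.08, 4.71 and 5.93 against 6.71, 5.71 and 7.42 (-1.37, adjusted p = 0.368, and 0.0447 with the block). Cd274, the PD-1 ligand PD-L1, had 11.41, 10.52 and 10.89 against 8.47, 8.99 and 9.23 unstimulated (2.04 ± 0.29, adjusted p = 0.0684, and 0.0467 with the block). Egln3, an oxygen sensor, had 4.60, 6.12 and 6.54 against 7.19, 7.27 and 8.66 unstimulated (-1.95, adjusted p = 0.290, and 0.0467 with the block).

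No member of the remaining gene lists passed either fit, Egr2 in the immediate early list excepted. Genes of the citric acid cycle and oxidative phosphorylation stood slightly higher: 20 of 22 measured differences were above 0, beside 4593 of 8953 over all genes, and the median was 0.34, beside 0.01. In 7 of them all IL-4 arrays lay above all unstimulated arrays, beside 10% of all genes, and in 0 below, beside 8.41%. Ndufv1, a subunit of complex I, had 10.76, 11.18 and 11.02 with IL-4 against 10.45, 10.44 and 10.47 unstimulated (0.53, adjusted p = 0.345). In the eicosanoid and endocannabinoid list, 17 measured, Alox5ap, which hands arachidonic acid to 5-lipoxygenase, had 10.13, 9.70 and 9.74 against 11.67, 10.68 and 11.66 unstimulated (-1.48 ± 0.30 SE, adjusted p = 0.158, and 0.0506 with the block). Cnr2, the gene of the cannabinoid receptor CB2, had 8.84, 8.59 and 8.92 with IL-4 against 8.54, 8.01 and 8.52 unstimulated (0.42 ± 0.21, adjusted p = 0.563). Its groups did not overlap, but a difference of that size was not called. In the class II list Cd74, the invariant chain, had 11.97, 12.94 and 13.11 against 11.13, 8.85 and 10.89 unstimulated (2.38, adjusted p = 0.248). The scavenger and Fc receptor list (21 measured) had a median of -0.34 with 0 wholly above and 5 wholly below, beside 10% and 8.41% of all genes. In the interferon-stimulated (26), complement (9), DNA replication (25), mitosis (19) and housekeeping (10) lists no member separated the groups.

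**Figure D4:**
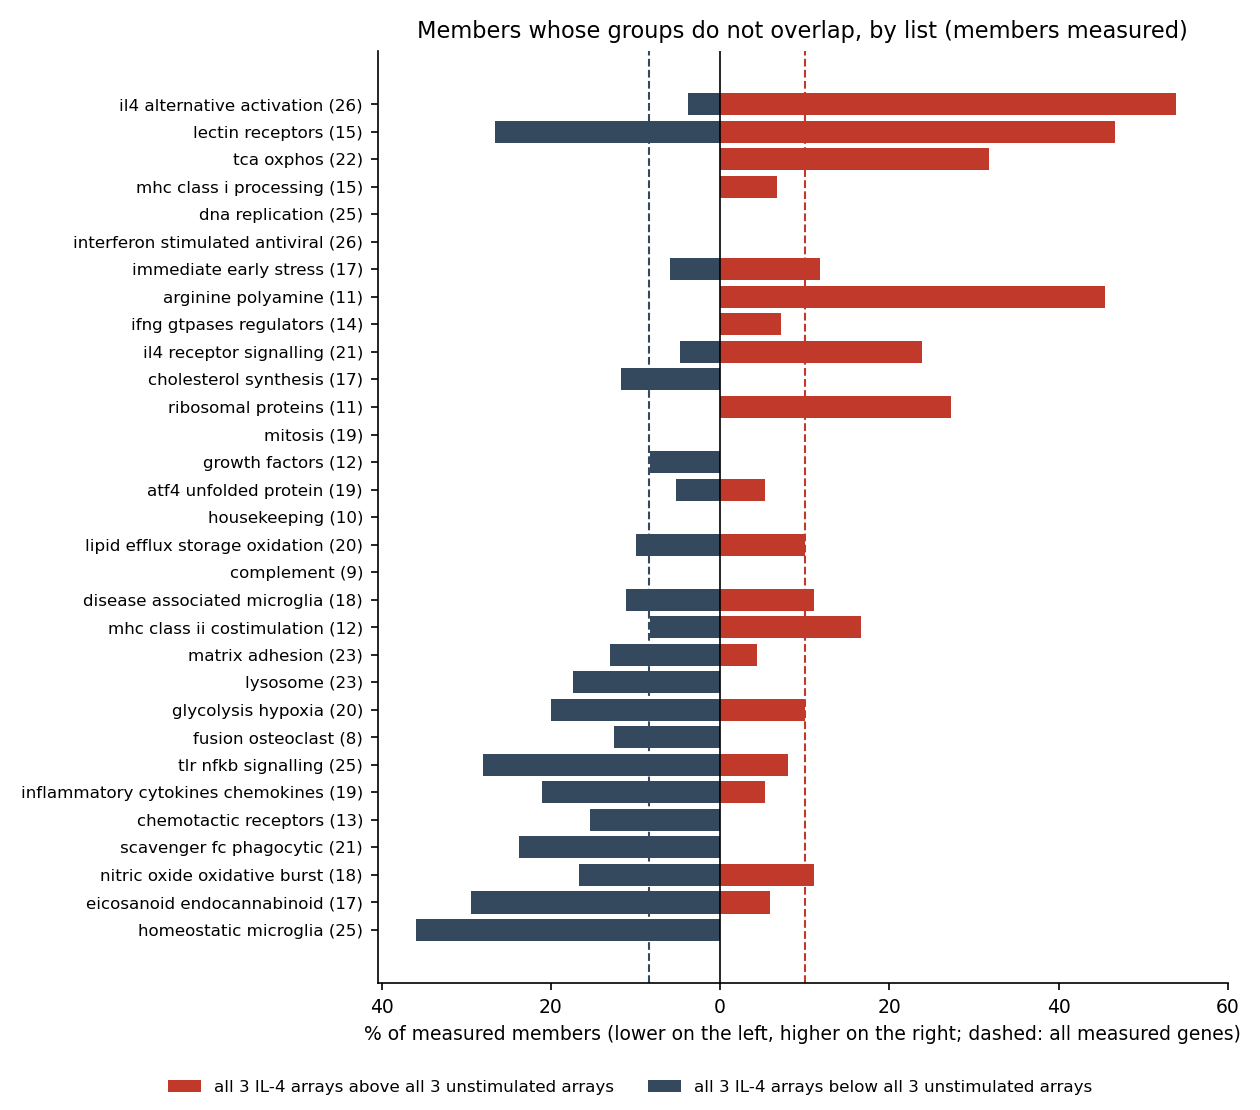
Share of each list's measured members in which all 3 IL-4 arrays lay above (right) or below (left) all 3 unstimulated arrays, with the number measured in brackets and lists ordered by median difference. Dashed lines mark the shares over all measured genes, 10% above and 8.41% below. Alternative activation has 14 of 26 on the right and homeostatic microglia 9 of 25 on the left.

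IL-4 replicate 1 differed from IL-4 replicates 2 and 3 across a broad set of genes. Over the measured probes it correlated with replicate 2 at r = 0.948 and with replicate 3 at r = 0.954, whereas replicates 2 and 3 correlated at 0.984. These correlations are across probes, which are not independent replicates. The SD of the difference was 0.69 and 0.65 for the pairs with replicate 1 and 0.39 for the pair without it. Probes more than 1 log2 unit apart numbered 1609 and 1568 in the pairs with replicate 1 and 385 in the other. Its correlation with unstimulated replicate 1 (r = 0.952, 1515 probes more than 1 apart) lay between those with its 2 mates. The split did not follow the slide, since replicate 1 shared a slide with replicate 2 and not with replicate 3. A single array against 2 allows no test, and the values that follow are descriptions.

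By gene, replicate 1 lay more than 1 log2 unit above both mates in 362 genes and below both in 233, together 6.65% of those measured. The same share was 0.715% for IL-4 replicate 2 and 0.469% for IL-4 replicate 3, and 1.2%, 3.14% and 0.57% for the 3 unstimulated replicates in order. Set against the mean of replicates 2 and 3, 456 genes (5.09%) were more than 1 above and 321 (3.59%) more than 1 below. Probes of one gene also disagreed more often on this array: of 3354 genes with several measured probes, 315 (9.39%) had probes whose deviations from the mates lay more than 1 apart, against 140 and 174 on replicates 2 and 3. The unstimulated replicates had 217, 218 and 79 such genes in order. Its brightness was like that of the others, at a mean raw intensity of 338, and it had 16128 probes detected.

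Interferon-stimulated genes were among those above the mates. Of 26 measured members of that list 24 were more than 1 above the mean of replicates 2 and 3 and 0 more than 1 below, with a median of 2.20 beside -0.03 over all genes. Ifit2, which binds viral RNA, had 12.33 in replicate 1, against 7.52 and 9.07 in replicates 2 and 3. Irf7, the transcription factor that drives interferon genes, had 12.15 against 7.59 and 9.14. Oas2, an antiviral synthetase, had 10.75 against 6.75 and 7.15. In unstimulated cells these genes lay in between or near the lower arrays: Irf7 had 9.21, 7.86 and 9.25, and Oas2 had 8.37, 7.47 and 7.92. Of 14 measured interferon gamma GTPases and regulators 8 were more than 1 above, with Gbp2 at 10.69 against 7.05 and 7.05 and Gbp3 at 9.27 against 5.48 and 5.66. Ifi47, an interferon-inducible GTPase outside that list, had 9.71 against 6.14 and 6.45.

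Chemokines of the CC family were high on the same array. Ccl8 had 13.46 in replicate 1, against 6.15 and 6.85 in the other IL-4 replicates and 4.86, 4.57 and 5.01 unstimulated. Ccl7 had 12.42 against 7.27 and 8.27, Ccl12 had 12.59 against 7.23 and 8.56, and Ccl5 had 13.20 against 8.42 and 10.34. These 4 stood 6.96, 4.66, 4.70 and 3.82 above the mean of the mates. Unstimulated cells had 7.61, 4.53 and 6.37 of Ccl7 and 9.36, 8.65 and 9.48 of Ccl5. For Ccl12 they had 11.07, 6.70 and 10.73, so unstimulated replicates 1 and 3 also lay above IL-4 replicates 2 and 3. Of the whole cytokine and chemokine list 9 of 19 were more than 1 above and 2 more than 1 below, namely Ccl3 (-1.42) and Cxcl14 (-2.20). Saa3, an acute phase protein, had 12.08 in replicate 1 against 8.05 and 8.44, near the 11.56, 9.79 and 11.20 of unstimulated cells. Aoah, which detoxifies LPS, had 10.34 against 6.82 and 7.08, and 10.71, 7.15 and 9.67 in unstimulated cells.

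Genes of extracellular matrix and of other cell types were high there as well. Ccn2, connective tissue growth factor, had 9.81 in replicate 1 against 4.87 and 4.94 in its mates. Lox, which cross-links collagen, had 9.18 against 5.33 and 5.46, and Timp1, a metalloproteinase inhibitor, 8.15 against 4.71 and 4.90. Among 9 fibroblast and mural markers 7 were detected in replicate 1, against 1 and 1 in replicates 2 and 3 and 2, 2 and 1 in the unstimulated arrays. Their summed intensity was 3520 in replicate 1, 227 and 295 in replicates 2 and 3, and 851, 248 and 270 unstimulated. Acta2, smooth muscle actin, made up most of the replicate 1 sum, at 11.53 against 5.72 and 6.87. Col1a1, a collagen chain, had 8.41 against 4.40 and 4.37. The other markers detected in replicate 1 lay between 4.94 and 5.28, near its detection floor of 4.84, and Pdgfrb and Rgs5 were detected on no array. Of 12 astrocyte markers 6 were detected in replicate 1 and 2 in each of its mates, while the unstimulated arrays had 3, 0 and 5. Their sum was 2686 in replicate 1, 291 and 290 in its mates, and 376, 275 and 375 unstimulated. Nearly all of it was Gja1, connexin 43, at 11.17 against 4.40 and 5.29, whereas Aqp4, S100b, Fgfr3 and Gjb6 were detected on no array.

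The border macrophage sum was highest in replicate 1 as well. It was 34057 in replicate 1, 15078 and 17717 in replicates 2 and 3, and 23418, 8910 and 13654 unstimulated. Its brightest members were Mrc1 (14.26 against 12.82 and 13.19), which is also in the alternative activation list, and Ms4a7 (13.21 against 12.80 and 12.75). Cbr2 had 9.55 against 5.37 and 6.08, Folr2 9.74 against 6.31 and 7.73, and Cd163 5.86 against 4.46 and 4.30, while Lyve1 and Cd209f were detected on no array. F13a1, detected on 1 IL-4 array, went the other way (4.37 against 4.86 and 4.57). The part of these other cell types in the values of replicate 1 was not tested. Endothelial markers did not set replicate 1 apart (5123 against 4651 and 4838 with IL-4, and 754, 2001 and 1114 unstimulated), and that sum was carried by Flt1 and Pecam1, with Cldn5, Cdh5 and Tek detected on no array.

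The genes below the mates included DNA replication and antioxidant genes. Of 25 replication genes 11 were more than 1 below and 0 more than 1 above, with a median of -0.74. Lig1, a DNA ligase, had 7.53 against 9.02 and 9.06, and Mcm5, a subunit of the replicative helicase, 8.4 against 9.85 and 9.89. Unstimulated cells had 8.10, 8.42 and 8.59 of Lig1, all above replicate 1, and 8.34, 8.43 and 8.98 of Mcm5, which replicate 1 resembled. In the nitric oxide and antioxidant list 8 of 18 were more than 1 below, among them Gpx3 (-2.10), Gclm (-2.03) and Hmox1 (-1.54). By the naming rule the genes furthest below were Chn2 (4.48 against 7.64 and 7.20), Gpr34 (6.32 against 8.95 and 9.02), Tspan33, Cdca7, Engase, Fam102a, Acot1, Enc1, Adssl1 and Serpinb6b, by 2.11 to 2.94. Gpr34, a lysophosphatidylserine receptor of microglia, had 9.21, 9.90 and 10.10 in unstimulated cells. Dnase1l3, at 9.88 against 5.28 and 5.59, completed the 10 genes furthest above.

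The risen genes were high in replicate 1 too. They were called with that array in the fit, so this cannot show that its IL-4 response was intact. Retnla, Arg1, Mgl2, Dusp4, Egr2 and Fyn were each within 0.79 of the mean of replicates 2 and 3, and Rnase2a was 1.75 lower in replicate 1. Within the alternative activation list 11 of 26 members were more than 1 above the mates and 2 more than 1 below, with Pdcd1lg2 2.86, Ch25h 2.77, Clec10a 2.32, Il1rn 1.98, Chil3 1.81, Slc7a2 1.65 and Ccl24 1.63 above and Mmp12 1.91 below. Without replicate 1 the comparison gave 20 higher and 2 lower probes, of which 12 were among the 19 of all 6 arrays. With replicate number as a block and both replicates 1 left out, an alternative chosen after seeing the data, the counts were 139 higher and 114 lower, and all 19 were among them.

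**Figure D5:**
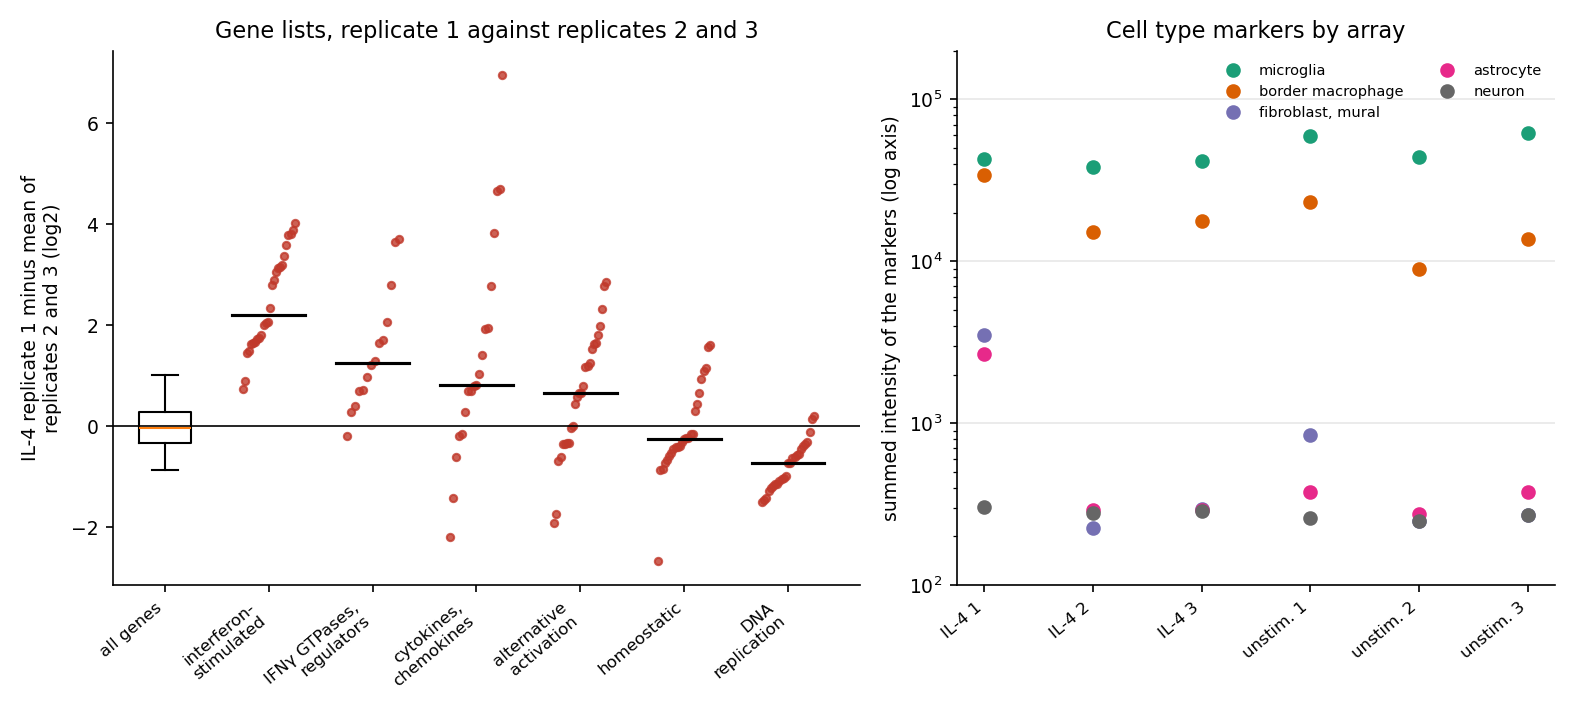
Left, difference of IL-4 replicate 1 from the mean of IL-4 replicates 2 and 3 (log2) for all measured genes (box with 5th to 95th percentile whiskers) and for the measured members of 6 lists (points, lines at medians). The median was 2.20 for interferon-stimulated genes and -0.74 for DNA replication. Right, summed linear intensity of cell type markers on each array (log axis), where the fibroblast and mural sum is 3520 in IL-4 replicate 1 and 227 and 295 in its mates.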

How the data were processed

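The authors deposited a table of bead-array intensity values with no normalization, and a detection p-value for each probe and array beside them, per the file headers. They also deposited a log2 table whose scale and steps are not given in the sources used here. Its column medians lay between 6.91 and 6.94, and its shifts from log2 intensity followed the slide. Partek is named in the submitters' processing notes. The columns were matched to samples by the array identifier in the labels.

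For the 6 arrays, background was corrected with limma's nec (offset 16, parameters inferred from the detection p), followed by quantile normalization. Kept probes were fitted with lmFit and eBayes (limma 3.58.1, R 4.3.3) with group as the only term. Slide and replicate number entered alternative fits. The LPS and interferon gamma arrays were left out of the main fit because one of them was dim. P-values were adjusted by Benjamini-Hochberg over all 16005 probes at 0.05. Of the probes 34885 had 1 symbol, 18 several and 10378 none. Symbols were updated through the RefSeq gene table, which matched 34807. "At least" folds use each array's lowest signal among detected probes. Array number limits the precision. In simulated data with known changes, the fit recovered 38% of changes of 1 log2 unit and 100% of those of 2, with 9 false among 178 calls. That recovery does not carry over to genes whose real replicates varied widely. Ccl24 (difference 3.76) and Pdcd1lg2 (2.82) were not called, so an uncalled gene may differ by more than 2. Same-numbered arrays of the 2 groups deviated together (r = 0.366, 0.43 and 0.309 for numbers 1 to 3), so the block by number is given beside the main result where it changes a call. The number comes from the titles, and the labels do not pair arrays of the 2 groups. These correlations were read from the same values that the block fit tests, so they give no separate evidence for the pairing.

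Genes to name were those past the threshold with groups that do not overlap, filled up to 12 per direction by the largest moderated t among genes with such groups, all members of the IL-4 lists, and from each other list the 4 members lowest in adjusted p. Not all of these are printed. Risen genes undetected in unstimulated cells were added by their lower bound. For IL-4 replicate 1 they were the 10 genes highest and the 10 lowest against replicates 2 and 3, where those 2 lay within 0.5. Other list members were named after their values were seen. The members and the lists were chosen with earlier results of these data known.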

Additional observations from a re-analysis of the deposited data

How the results depend on the processing

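No result changed direction among the alternatives run. For the called genes, whose groups do not overlap, this was fixed in advance where an array was left out or the replicate block added. Calls were few enough that most counts moved. Probes higher and lower numbered 16 and 3, and list members 6 and 0. Without background correction there were 15 and 5 probes, and 3 members higher. With no filter on dim probes there were 1 and 0 probes and 0 members, from 45281 probes tested. All 9 arrays gave 9 and 1 probes, and with slide as a block 4 and 0, with 3 members higher. Within the shared slide there were 2 and 0 probes and 2 members. The replicate block, pairing arrays by number, gave 59 and 45 probes and 15 and 13 members, and without replicate 1 of either group 139 and 114 probes and 26 and 27 members. The deposited log2 table gave 31 and 11 probes. A variance trend with robust fitting gave 35 and 9 probes and 2 members lower, and array weights gave 76 and 49 probes and 14 and 11 members. Leaving out single arrays gave 0 to 20 probes higher, 0 to 33 lower, 0 to 6 members higher and 0 to 10 lower. The lowest counts came without unstimulated replicate 1 and the highest lower counts without unstimulated replicate 2. Median centring and the stricter filter left every count within 1.5 times. Retnla stayed past the threshold in 16 of 18 alternatives, Dusp4, Fyn, Rnase2a and Mgl2 in 14, Egr2 in 13, Arg1 and Focad in 10, Il4i1, P3h2, Cd300ld and Retreg1 in 8, and Slc7a2 and St7 in 7. Probes in which IL-4 replicate 1 lay more than 1 from both mates numbered 1003, 411 without background correction and 224 in the deposited log2 table. The cause of these shifts was not tested. Probes near background have compressed differences, so changes in dim genes were less detectable.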

Other observations

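Beyond the lists, some genes passed the threshold only with replicate number as a block, and the ones given here were chosen after their values were seen. Anpep, the membrane aminopeptidase CD13, had 9.46, 9.12 and 8 with IL-4, against 5.51, 6.3 and 6.23 unstimulated (2.85 ± 0.40 SE, limma adjusted p = 0.0684, and 0.0444 with the block). Flrt2, a transmembrane adhesion protein, had 8.81, 8.64 and 7.56 against 6.22, 5.18 and 5.25 unstimulated (2.79 ± 0.40, adjusted p = 0.0712, and 0.0184 with the block). Lmna, the nuclear lamin A/C, had 11.93, 11.81 and 11.58 against 10.48, 10.59 and 9.58 unstimulated (adjusted p = 0.0444 with the block). Pecam1, the adhesion molecule CD31, had 9.57, 7.27 and 8.65 against 6.62, 5.37 and 6.26 unstimulated (adjusted p = 0.0262 with the block). On the lower side, Cd93, a membrane glycoprotein of myeloid and endothelial cells, had 6.97, 8.30 and 6.83 with IL-4, against 9.47, 9.45 and 9.07 unstimulated (-1.96 ± 0.38, adjusted p = 0.0459 with the block). Satb1, a chromatin organiser, had 5.67, 6.54 and 7.11 against 8.20, 7.97 and 8.66 unstimulated (-1.84 ± 0.37, adjusted p = 0.0447 with the block). No array of one group overlapped the other in these 6 genes.

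Unstimulated replicate 2 lay more than 1 log2 unit below both mates in 191 genes and above both in 90. Its summed border macrophage markers were 8910, against 23418 and 13654 in unstimulated replicates 1 and 3.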
